A study of Vitis vinifera with 3 samples.

Results

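VvmiR30 and VvmiR34 are 2 miRNAs that the study annotated as new in grape, both on chromosome 19, with VvmiR30 on the plus strand and VvmiR34 on the minus strand. Their 5′ fragments were followed here among the short reads of whole 'Wink' berries at 3 stages, the young berry (YB, 5 days after flowering, DAF), the stone-hardening berry (SB, 45 DAF) and the mature berry (MB, 90 DAF). The labels name no treatment. Each stage has 1 small RNA library, and the paper takes those of YB and MB from other work of the same group, so a difference between stages cannot be told apart from a difference between libraries or sequencing batches. The fragments are the reads of 14 to 17 nt that are identical to the 5′-end shared by both miRNAs. They were 4 distinct sequences of the 41342 in the 3 libraries, and 1007 of the 148979 reads. VvmiR30 and VvmiR34 were chosen by their number of short reads, as the only new VvmiRNAs with many of them, so the level of the fragments is a description and carries no test.

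A plant miRNA is cut from the stem of a folded precursor RNA by a DICER-LIKE enzyme and is then held by an ARGONAUTE protein, which it guides to mRNAs of complementary sequence. The 5′-end of the miRNA sits in a pocket of ARGONAUTE, the following bases are called the seed and start the pairing with the target, and the 3′-end is the end that nucleases and nucleotide-adding enzymes most often change. A read that keeps the 5′-end and lacks the 3′-end does not measure the amount of the full-length miRNA. No target of VvmiR30 or VvmiR34 was examined here.

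The 4 fragments are nested and differ only in where they stop. They are shown with the seed (bases 2 to 8) in capitals, because everything that follows counts these sequences or reads that differ from them by 1 base.
14 nt fragment: gTTGGAAGtcggtg
15 nt fragment: gTTGGAAGtcggtgg
16 nt fragment: gTTGGAAGtcggtggg
17 nt fragment: gTTGGAAGtcggtgggg
VvmiR30 and VvmiR34 share all of these bases and the seed. The only difference between the mature sequences is A20C (base of VvmiR30 first, and base 1 being the 5′-most), and no fragment from base 1 reaches so far. The fragments therefore belong to the pair, and they cannot be divided between VvmiR30 and VvmiR34. The deposited lists stop at 17 nt, so longer reads of the pair were not analysed here.

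The lists of short reads summed to 39791 reads for YB, 33228 for SB and 75960 for MB, and all were 3 to 17 nt long. They hold a length class below the size that the study kept for calling miRNAs, and the sum of such a list is not a sequencing depth. A count of 3 reads, the smallest that was read as a signal, is 0.00754% of the list at YB, 0.00903% at SB and 0.00395% at MB. In the MB library, 57.2% of the reads belonged to 2 tag families unrelated to the pair, groups of reads that share 13 nt with an abundant sequence, against 17.05% at YB and 16.6% at SB. Shares of the MB list are thus also given without these reads. Intervals are 95% intervals and cover counting error only.

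The pair had most fragments in the stone-hardening berry and fewest in the mature berry. There were 405 fragments at YB, 518 at SB and 84 at MB. As a share of the short reads this was 1.02% at YB (Wilson interval 0.924% to 1.12%). The share was 1.56% at SB (1.43% to 1.70%), and it was 0.111% at MB (0.0893% to 0.137%). The 3 intervals did not overlap, and the order of the stages was SB, YB and MB. The share at YB was 1.53-fold lower than at SB (exact conditional interval 1.34 to 1.75), which is a log2 (YB/SB) of −0.62. The share at MB was 14.1-fold lower than at SB (11.2 to 17.97), a log2 (MB/SB) of −3.82, and 9.20-fold lower than at YB (7.26 to 11.8). Without the reads of the 2 tag families, the shares were 1.23% at YB, 1.87% at SB and 0.258% at MB, and the log2 (MB/SB) was −2.86. Per clean read, with the clean reads inferred from the value of 1 read in the study's scaled table, the log2 (MB/SB) was −2.60 and the log2 (YB/SB) was −0.31. With DESeq2 size factors from sequences with at least 10 reads, the log2 (YB/SB) was −0.17. Its interval includes no difference (−0.37 to 0.02). YB and SB thus differed beyond counting error under the other scalings tried and not under this one. The clean-read total that the paper states for SB was not among them, and the difference between YB and SB may not hold with it. MB was lowest under each of these scalings, which do not include the share among fragments of known miRNAs given below.

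**Figure D1:**
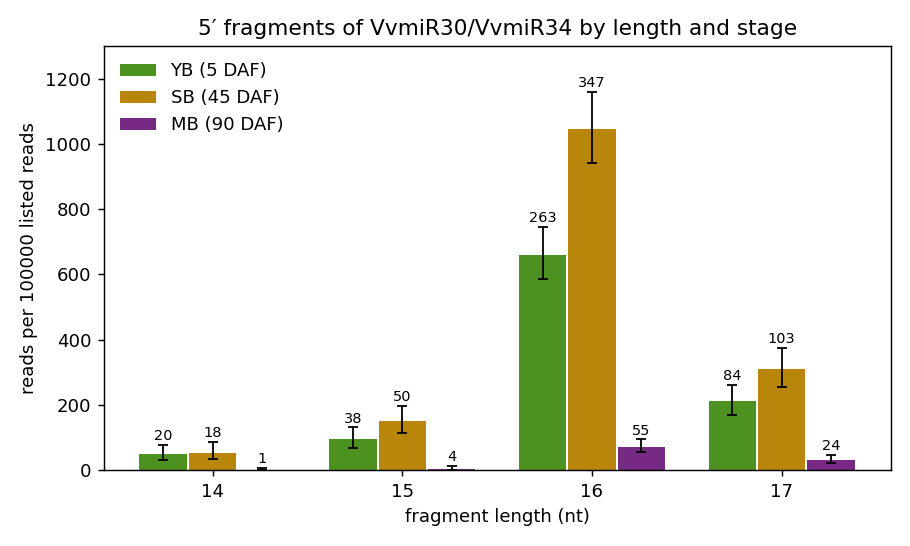
Reads of each fragment of VvmiR30/VvmiR34 per 100000 listed reads (vertical axis) by fragment length in nt (horizontal axis) in the YB, SB and MB libraries. Bars start at 0, lines are 95% Wilson intervals and the numbers are reads, and the 16 nt fragment is the highest in each library, with 263, 347 and 55 reads.

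The 16 nt fragment carried most of this signal at each stage. Its reads numbered 263 in YB, 347 in SB and 55 in MB. Per 100000 short reads it had 661 in YB (interval 586 to 745), 1044 in SB (941 to 1159) and 72.4 in MB (55.6 to 94.2). Its share at MB was 14.4-fold lower than at SB (10.8 to 19.5). The 17 nt fragment, longer by 1 G, had 84 reads in YB, 103 in SB and 24 in MB, and its share at MB was 9.81-fold lower than at SB (6.24 to 16). The 15 nt fragment had 38, 50 and 4 reads in the same order, and the 14 nt fragment had 20, 18 and 1. Both were thus rare in the mature berry. The ratio of the 14 nt fragment as read, 41.1-fold lower at MB than at SB, has an interval of 6.5 to 1714 because it rests on 1 read, and it is 13.7-fold with the MB count set to 3 reads. Between YB and SB, the 14 nt fragment differed by 1.08-fold with an interval that includes no difference (0.538 to 2.15), while the intervals of the other 3 fragments excluded it. The plot of reads by length and stage shows that the order SB, YB, MB was the same for the fragments of 15, 16 and 17 nt, and that YB and SB lie close together at 14 nt.

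Each fragment was set among all sequences of 14 to 17 nt, the 4 fragments included, with at least 10 reads in the higher library of a pair, on the same scale and with counts under 3 set to 3. From SB to MB, 33.6% of 544 such sequences were lower by at least 2-fold, and so were all 4 fragments of the pair. From YB to MB, 37.6% of 587 sequences were lower by at least 2-fold, again with all 4 fragments among them. From SB to YB, 23.7% of 375 sequences were lower by at least 2-fold in YB and none of the 4 fragments was. The median log2 of all sequences was 0.39 for MB/SB, 0.80 for MB/YB and −0.01 for YB/SB. The 4 fragments are pieces of the same 5′-end and count as 1 observation. A share at MB lower by this limit was thus common among short reads and is not particular to the pair. The pair was chosen with its stage values known, so nothing is read from the count of its fragments.

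**Figure D2:**
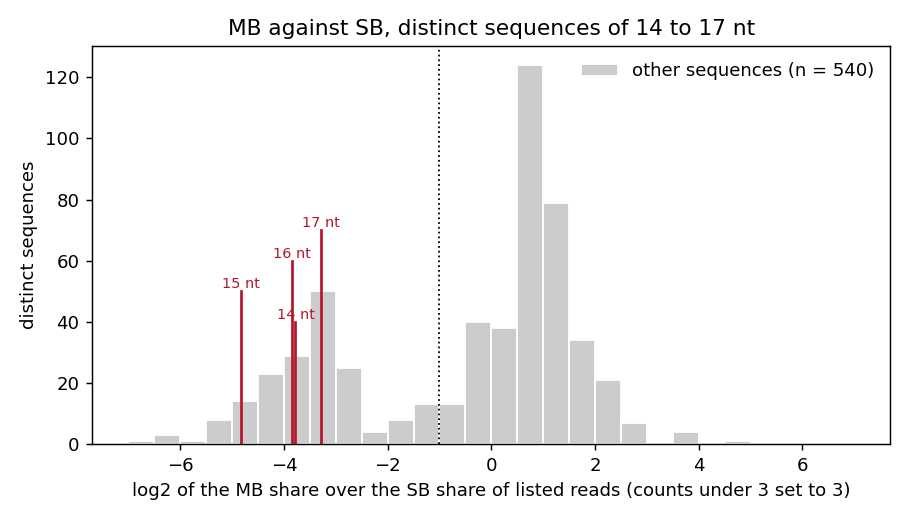
Number of distinct sequences of 14 to 17 nt (vertical axis) by the log2 of their MB share over their SB share (horizontal axis), with the 540 other sequences in grey, the 4 fragments of VvmiR30/VvmiR34 as red lines of arbitrary height and the 2-fold limit as a dotted line. The fragments lie between −4.84 and −3.29, left of the 2-fold limit.

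Counting reads identical to the listed sequences only, the known VvmiRNA nearest in stage pattern was VvmiR396a–d. Likeness was the Euclidean distance between log2 shares over the 3 libraries, each centred on its own mean and with counts under 3 set to 3, for the known VvmiRNAs of the study grouped by their first 14 nt, and 11 known groups had at least 10 fragments in all. VvmiR396a–d, a conserved miRNA family that is known in other plants to target growth-regulating transcription factors, had 76 fragments in YB, 99 in SB and 13 in MB, and a distance of 0.239. Most reads counted with this family at YB and SB carried the variant A7G, with 826 reads in YB, 536 in SB and 11 in MB. The A7G reads cannot be told apart from those of another gene that differs at this base. With these reads the family had 2267, 1911 and 31.6 fragments per 100000, was highest at YB and lay at a distance of 2.16, so its likeness to the pair holds for the identical reads only. VvmiR395a–m, of a family known in Arabidopsis for its response to sulfate supply, had 28, 21 and 1 fragments and a distance of 0.715, which rests on its MB count being set to 3, since with the 1 read as found the distance was 1.84. VvmiR3623* had 6, 11 and 5 fragments and a distance of 1.47. With 3 points per group and counts this low, the order describes these libraries only, and it changes with the floor and with A7G.

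VvmiR166b–h and VvmiR159c, the groups with most fragments, were at distances of 1.68 and 1.79. VvmiR166b–h, a family known in Arabidopsis to target HD-ZIP III transcription factors, had 2288, 712 and 112 fragments, and VvmiR159c, of a family known there to target MYB genes, had 1192, 684 and 43. Both were highest at YB, where VvmiR30/VvmiR34 was below its SB value. Of the 11 known groups, 6 were lower at MB than at SB by at least 2-fold by their counts as read, and 2, VvmiR3623 and VvmiR477, were higher, the latter, named after its values were seen, with 1 read at SB and 9 at MB. By identical reads, VvmiR30/VvmiR34 ranked at place 3 among the 87 groups at YB and SB and at place 2 at MB. Of these groups, 33 had a fragment at YB, 29 at SB and 24 at MB. The pair was chosen for its many fragments, so its rank is a description. With its A7G reads, VvmiR396a–d had 902 fragments at YB and 635 at SB, more than the pair, and 24 at MB, fewer than the pair. By identical reads, the share of VvmiR30/VvmiR34 in the fragments of all groups was 9.96% at YB (Wilson interval 9.08% to 10.9%). At SB this share was 24.6% (22.8% to 26.5%), and at MB it was 22.0% (18.1% to 26.4%). Set against these identical fragments of known miRNAs and not against all short reads, the pair was therefore lowest at YB, and the intervals of SB and MB overlapped.

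**Figure D3:**
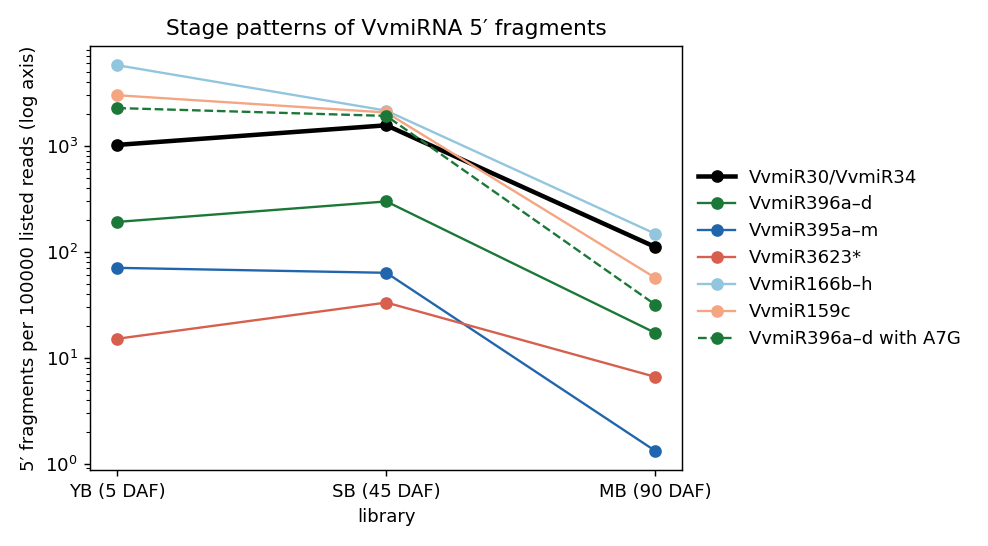
5′ fragments per 100000 listed reads (vertical log axis) of VvmiR30/VvmiR34, of the 3 known groups nearest in pattern and of the 2 with most fragments in the YB, SB and MB libraries (horizontal axis). VvmiR30/VvmiR34 and the identical reads of VvmiR396a–d peak at SB, with 1559 and 298 per 100000, while VvmiR166b–h, VvmiR159c and VvmiR396a–d with its A7G reads (dashed line) are highest at YB.

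The lengths of the fragments were not used to choose the pair beyond the limits of 14 and 17 nt, and they were much the same at all stages. At YB, 64.9% of the fragments were 16 nt long (Wilson interval 60.2% to 69.4%). SB had 67.0% (62.8% to 70.9%) and MB 65.5% (54.8% to 74.8%). The 17 nt fragment followed with 20.7%, 19.9% and 28.6% in this order of stages, the last with an interval of 20% to 39.0%. The stages thus overlapped in both shares, although the number of fragments at MB was far lower. Among all reads of 14 to 17 nt, 28.9% were 16 nt long at YB, 30.8% at SB and 38.9% at MB, so the excess of 16 nt was present against the whole list in each library.

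The known groups with many fragments differed in length profile from the pair and from each other. The lists stop at 17 nt, so a high share at this length does not show a peak there. The fragments of VvmiR166b–h were 17 nt long in 92.7% of reads at YB and 89.9% at SB, and those of VvmiR396a–d in 82.9% and 84.8%. VvmiR159c had 43.9% of its fragments at 16 nt and 47.6% at 17 nt at YB. For VvmiR30/VvmiR34, the 16 nt share lay above the interval of VvmiR166b–h, VvmiR159c and VvmiR396a–d at all 3 stages. VvmiR3623, with 61 fragments at MB, also had most of them at 16 nt there, 50.8% (interval 38.6% to 62.9%), which overlaps the interval of the pair. The length profile of VvmiR166b–h was different at MB, where its 17 nt share was 49.1% (interval 40.03% to 58.2%) of 112 reads, while the profile of VvmiR30/VvmiR34 showed no such change. The 4 fragments all end inside a run of G, which reaches from base 14 to base 18 in the reads described below, so that they differ from each other by their number of G only.

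**Figure D4:**
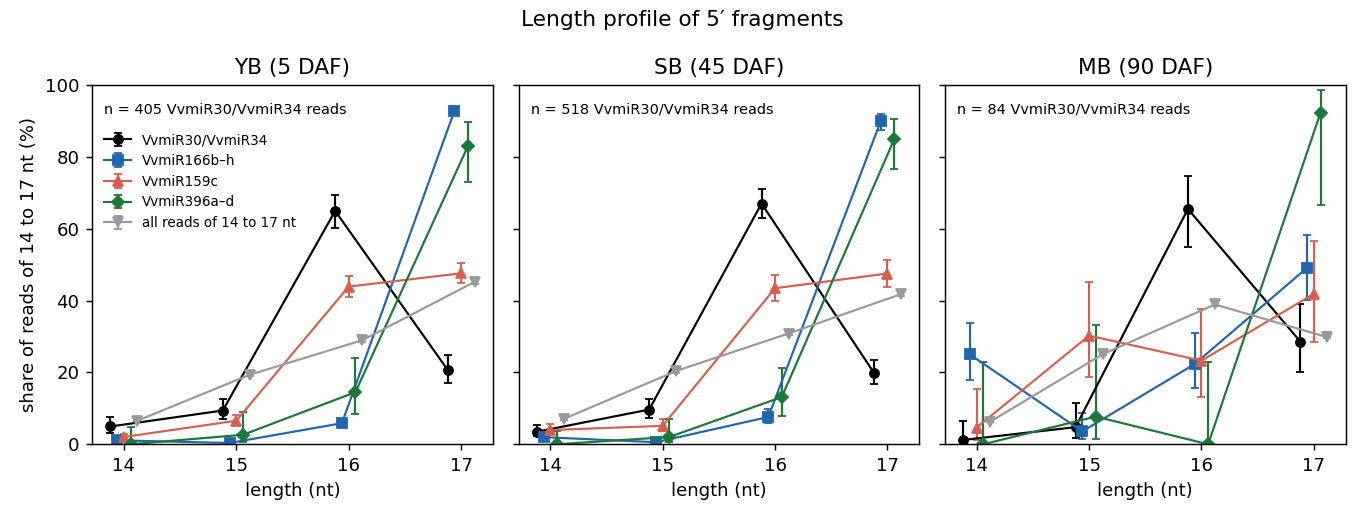
Share of 5′ fragments at each length (vertical axis, % of the reads of 14 to 17 nt of a group; horizontal axis, length in nt) in the YB, SB and MB libraries, for VvmiR30/VvmiR34, 3 known groups and all listed reads, with 95% Wilson intervals. VvmiR30/VvmiR34 peaks at 16 nt in each library, with 64.9%, 67.0% and 65.5%, while VvmiR166b–h and VvmiR396a–d have most reads at 17 nt, the longest length listed.

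Starting at base 1 is part of how the fragments were chosen, so the share of such starts is a description. Reads of at least 14 nt that overlap the 17 nt fragment by 12 nt or more without a mismatch almost always started at base 1. YB had 99.0% of such starts (Wilson interval 97.5% to 99.6%), SB 98.7% (97.3% to 99.4%) and MB 95.5% (88.9% to 98.2%). The other 15 reads are few, but some show bases that the fragments do not. They are printed with the informative base in capitals, the base before base 1 in the first and base 20 in the last.
read with 1 base before base 1: Agttggaagtcggtggg
read from base 4 to base 19: ggaagtcggtggggga
read from base 4 to base 20: ggaagtcggtgggggaA
The read with A before base 1 was found 3 times at YB, 4 times at SB and 0 times at MB. The read from base 4 to base 19 was found 3 times, all at MB, and the read from base 4 to base 20 was found once at SB and once at MB. The latter 2 reads are the only ones of the pair that reach base 20, and both have the base of VvmiR30 there and 0 have that of VvmiR34. With 2 reads, this does not measure the proportion of the pair. Just outside the length limit, the first 13 nt of the pair were read 4 times at YB, once at SB and 0 times at MB, against 20, 18 and 1 reads at 14 nt.

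The most frequent variant of the pair in each library was T9C, with the base of the fragments first and position 9 just after the seed. It was found at each of the 4 lengths and is shown with base 9 in capitals.
14 nt variant: gttggaagCcggtg
15 nt variant: gttggaagCcggtgg
16 nt variant: gttggaagCcggtggg
17 nt variant: gttggaagCcggtgggg
T9C had 29 reads in the YB library, 26 in SB and 9 in MB. Its share was taken among reads identical to the fragments or with 1 difference, where differences at bases 1 and 2 or at the 3′-most base of a read did not count. It was 6.62% in YB (Wilson interval 4.65% to 9.35%), 4.73% in SB (3.25% to 6.84%) and 9.47% in MB (5.06% to 17.03%). The 3 intervals overlapped. No other single difference had more than 1 read in a library, with 4 other types at YB, 6 at SB and 2 at MB. T9C reads cannot be told apart from those of another gene that differs at this base. Of the 86 known groups, 0 share their first 14 nt with the T9C reads.

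Together, all single differences made up 7.53% of these reads in YB (interval 5.41% to 10.4%). They made up 5.82% in SB (4.15% to 8.10%) and 11.6% in MB (6.59% to 19.6%). For VvmiR166b–h the same share was 1.84% at YB, 2.73% at SB and 1.75% at MB, and for VvmiR159c 0.997% at YB, 1.299% at SB and 0 of 43 reads at MB. The intervals of VvmiR30/VvmiR34 lay above those of VvmiR159c at YB and SB and above that of VvmiR166b–h at YB, while at SB the intervals of the pair and VvmiR166b–h met at 4.15% and 4.18%. At MB, the interval of the pair overlapped that of VvmiR159c, which reaches 8.20%, and VvmiR166b–h had an upper bound of 6.17%, below the pair's lower bound of 6.59%. VvmiR3623 had 1 such read among 62 at MB, with an interval up to 8.59%. VvmiR396a–d, with its A7G reads, had 91.6% at YB, 84.4% at SB and 45.8% at MB. Of the differing reads of the pair, T9C made up 29 of 33 at YB, 26 of 32 at SB and 9 of 11 at MB. The share of the pair thus rests mostly on T9C, whose reads may belong to another gene. The pair had 5 types of difference at YB, 7 at SB and 3 at MB, T9C among them. Each other type had 1 read in its library, beside 405, 518 and 84 identical reads. VvmiR159c had 12 differing reads beside 1192 identical ones at YB, and 9 beside 684 at SB. VvmiR166b–h had 43 beside 2288 and 20 beside 712. Apart from T9C, no excess of the pair over these groups was thus shown, and no share without T9C was computed.

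The T9C reads had other lengths than the identical reads. Of the 64 T9C reads of the 3 libraries, 29.7% had a length of 14 nt (interval 19.9% to 41.8%), against 3.87% of the 1007 identical reads (2.85% to 5.25%). A length of 16 nt was found in 32.8% of the T9C reads (22.6% to 45.0%) and in 66.0% of the identical reads (63.1% to 68.9%). Within libraries, the intervals at 16 nt were apart at YB and, narrowly, at MB. At YB, 24.1% of the T9C reads were 16 nt long (12.2% to 42.1%), against 64.9% of the identical reads (60.2% to 69.4%). At MB it was 22.2% of 9 T9C reads (6.32% to 54.7%), against 65.5% of the identical reads (54.8% to 74.8%). At SB, 46.2% of the T9C reads were 16 nt long (28.8% to 64.5%), which overlaps the 67.0% of the identical reads (62.8% to 70.9%). The share of T9C among both forms was higher at 14 nt than at 16 nt in each library. At YB, T9C was 31.0% of the 14 nt reads of both forms (17.3% to 49.2%) and 2.59% of the 16 nt reads (1.26% to 5.25%), and at SB it was 25.0% (12% to 44.9%) and 3.34% (1.92% to 5.75%). At MB, 4 of 5 reads of 14 nt had T9C, against 2 of 57 reads of 16 nt. In each library the intervals at 14 nt and 16 nt did not overlap. Per 100000 short reads, T9C was 72.9 at YB, 78.2 at SB and 11.8 at MB, and its share at MB was 6.60-fold lower than at SB (3.0 to 16), an interval that includes the 14.1-fold of the identical reads.

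**Figure D5:**
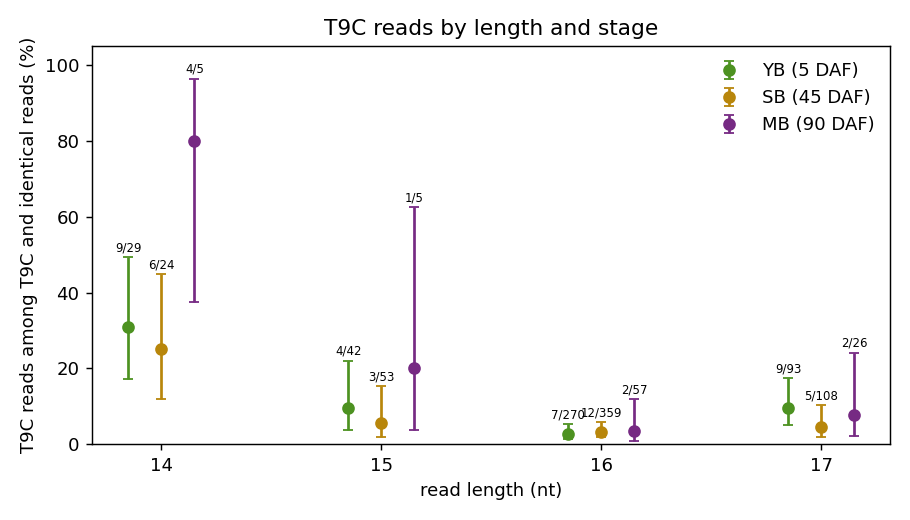
Share of T9C reads among T9C and identical reads (vertical axis, %) by read length in nt (horizontal axis) in the YB, SB and MB libraries, with 95% Wilson intervals and the reads behind each point (T9C over both forms). The share is highest at 14 nt in each library, at 31.0%, 25.0% and 80.0%, and lowest at 16 nt, at 2.59%, 3.34% and 3.51%.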

How the data were processed

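Per the labels and the paper's methods, total RNA of berries was extracted by a modified CTAB method, RNA of the small RNA size range was cut from a gel, and small RNA libraries were sequenced. The labels name an Illumina protocol, while the paper names Solexa sequencing in its results and another platform in its methods. Which of them made these reads was not settled. The deposited values are counts of reads per distinct sequence, with adapters removed and identical reads merged by the authors, and they were not normalized. The lists hold reads of 3 to 17 nt, and the paper's gel cut and its length filter lie above all of them. Short reads are thus a by-product whose yield may differ between libraries.

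The members and lists were chosen with earlier results of these data known. The mature sequences stand in the paper's main text. Reads were found by the first 8 bases of both, the most frequent 17 nt read with this start was taken as the reference, and it was identical to the first 17 nt of both mature sequences. Known VvmiRNAs came from the supplementary table of 161 entries in 86 groups with the same first 14 nt. With 1 library per stage no test was made. Shares have Wilson intervals and ratios exact conditional intervals at 95%, and counts under 3 were set to 3 for the background and the likeness. Alternative scalings were TMM (edgeR 4.0.16), median-of-ratios (DESeq2 1.42.0, R 4.3.3), and clean reads from the value of 1 read in the paper's scaled table of new VvmiRNAs, whose values all came out as whole reads (80, 41 and 38 values for SB, YB and MB). Named were the pair, its sequences and variants with at least 3 reads in a library, the 3 known groups nearest in stage pattern, and groups with at least 50 fragments in a library. Counting used Python 3.11.15 with scipy 1.17.1 and matplotlib 3.10.9, and was tested on simulated data.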

Additional observations from a re-analysis of the deposited data

Results flagged for a closer look

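Reads outside the 14 to 17 nt fragments from base 1 numbered more than 3, the smallest count that was read as a signal, in these cases. At SB, 5 reads started 1 base before base 1, 4 of them with A and 1 with C. At MB, 4 reads started at base 4, where YB had 0 and SB had 1. The first 9 nt of the pair were read 4 times at YB and 6 times at SB, and the first 13 nt 4 times at YB. A read of 9 nt can come from many RNAs, and the origin of these reads was not tested.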

How the results depend on the processing

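Of 84 alternatives for shares and ratios, 48 gave a value within the 95% interval of the value reported and 36 lay outside it. A direction was checked for the ratios between stages only, with 13 alternatives for each comparison, and 0 of these reversed it. The share among the fragments of all miRNA groups is not among the 84. By that measure the pair was lower at YB (9.96%) than at MB (22.0%). The log2 (YB/SB) of −0.62 became −0.38 and −0.42 with TMM factors (at least 10 reads, and no filter), −0.17 and −0.21 with DESeq2 size factors, and −0.31 with clean reads. The log2 (MB/SB) of −3.82 became −3.13 with unfiltered TMM factors, −3.43 and −3.01 with DESeq2 size factors, −2.60 with clean reads, −3.13 without the most abundant tag family, −2.86 without 2 separate tag families, and −3.29 with 17 nt fragments only. The log2 (MB/YB) of −3.20 became −2.71, −2.80 (DESeq2 without a filter), −2.29, −2.52, −2.25 and −2.74 under the same settings. The shares of YB, SB and MB were 1.18%, 1.81% and 0.206% without the most abundant tag family, and 1.23%, 1.87% and 0.258% without 2 families, an alternative chosen after seeing the data. With a minimum length of 16 nt, YB and SB had 0.872% and 1.35%, and at 17 nt the 3 stages had 0.211%, 0.310% and 0.0316%. With each distinct sequence counted once they had 0.0242%, 0.0269% and 0.0253%, since each library holds the same 4 sequences, and the order of the stages then says nothing of abundance. Single differences became 66.7%, 71.4% and 60% in this way, and 10.6% at YB in 17 nt reads. The 16 nt share stayed between 61.1% and 66.9% in the alternatives run for it. The distances of VvmiR396a–d (0.239) and VvmiR395a–m (0.715) became 2.16 with A7G and 1.84 without the floor, alternatives chosen after seeing the data. No paired analysis was possible because each stage has 1 library. The clean reads of all 3 stages are inferred from scaled values, and the total that the paper states for SB was not used. Whether YB and SB differ beyond counting error with that total was not settled. With 84 fragments at MB, lengths and variants there are known only within wide intervals.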
